A study of Mus musculus with 6 samples.

Results

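The tumour necrosis factor (TNF) superfamily is a family of signalling proteins and their receptors. Here it was taken as every non-control probe whose gene name in the array files starts with Tnfsf or Tnfrsf followed by a digit. That rule gave 40 probes of 30 genes, 10 ligands and 20 receptors, and each gene was read by its brightest probe over the 6 arrays. Of the 30 genes, 24 (5 ligands and 19 receptors) were bright enough to be tested, among 18855 genes tested on the arrays.

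Most TNF superfamily ligands are made as trimers on the cell surface and bind receptors on other cells. The receptors signal through TRAF adaptors to NF-kappaB or, where they carry a death domain, to caspases, and a few bind ligand without signalling and are called decoys. In the testis, TNF is known as a product of macrophages and germ cells that acts on Sertoli and Leydig cells.

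Messenger RNA was measured in testes of AROM+ mice, transgenic mice that over-express aromatase (the enzyme making oestrogens from androgens), and of wild-type (WT) mice. Both groups were 5 months old on the C57BL/6 background, with 3 mice a group and 1 whole testis on each one-colour Agilent array. The labels do not give the promoter that drives the transgene or the species of its sequence. The comparison asks which transcripts differed between AROM+ and WT testes.

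Levels are log2 intensities above or below the 75th percentile of the array, so a level of 0 is that percentile. Differences are AROM+ minus WT with the standard error (SE) from limma over 3 arrays a group, and a gene was called at an adjusted p under 0.05 over all genes tested. Each probe binds with its own strength, so levels do not rank different genes. The 75th percentile lay between 4268 and 5431 intensity units on AROM+ arrays and between 3696 and 4496 on WT arrays. Arrays correlated across genes with r of 0.986 to 0.991 within AROM+, 0.994 to 0.996 within WT and 0.949 to 0.979 between the groups. Markers of the labelled tissue were detected in both groups: the 12 Sertoli, 8 Leydig, 10 round spermatid and 10 elongating spermatid genes checked were all bright enough to test.

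The findings rest on 60-base probes, and the first 30 bases are shown for the receptors with the largest fitted differences and for Tnfrsf13b, whose 3 probes read differently. They are written 5′ to 3′ in lower case, with positions of the whole probe in the NCBI37/mm9 build as the files give them. Exons were not assigned here, since no annotation of that build was used.
Tnfrsf1b, chr4:144802359-144802418, minus strand: aaatctgggattacagacaattgtgccaaa
Tnfrsf26, chr7:150793990-150794049, minus strand: ccaacactatagaactattcacttgataaa
Tnfrsf12a, chr17:23812746-23812805, minus strand: agccttccaaggtgtccaattgccctatct
Tnfrsf13b, chr11:60954823-60954882, plus strand: tcagctgtgactccacctgcacacagcacc
Tnfrsf13b, chr11:60960405-60960464, plus strand: atcttctgctgtttcttggtggccttggcc
Tnfrsf13b, chr11:60962770-60962829, plus strand: cctggagaatatagcctggctccatttgca

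Both probes of Tnfrsf9 are shown by their last 30 bases, positions 31 to 60 of the probe, because the brighter one ends in a dinucleotide repeat. Capitals mark a run of 22 bases of GT.
Tnfrsf9 brighter probe, chr4:150319582-150319641, plus strand: taaaatcaGTGTGTGTGTGTGTGTGTGTGT
Tnfrsf9 other probe, chr4:150319101-150319160, plus strand: taacatatttgtctttaccttttttaaatc

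The largest fitted differences between AROM+ and WT testes were those of 3 receptors that were higher in AROM+, Tnfrsf26, Tnfrsf1b (TNF receptor 2) and Tnfrsf12a (the TWEAK receptor Fn14). Tnfrsf26 was not well above background on any WT array, so its rank among the 3 is not established. Of the 24 genes tested, 11 were higher (2 ligands and 9 receptors), 5 were lower (all receptors) and 8 were not called. Over all genes tested, 19.9% were higher, 32.6% were lower and 52.4% were called either way. The median difference of the 24 was 0.44, beside −0.14 for all genes tested. By the fitted difference, 5 of the 11 higher members were at least 2-fold higher, and 0 of the 5 lower members were at least 2-fold lower. The 5 higher ones include Tnfrsf26 and Tnfrsf17, whose WT arrays lay near or below background, so their fitted differences are not measured folds. Among all genes, limma called 1293 higher by at least 2-fold and 248 lower. All 3 AROM+ arrays lay above all 3 WT arrays for 12 members (23.4% of all genes) and below them for 5 (40.2% of all genes), which makes 17 of 24 with no overlap, beside 63.5% of all genes. These counts and the median are descriptions, because Tnfrsf17 and Tnfrsf26 passed the filter on dim probes only through the AROM+ arrays. Among the 22 members well above background on all 6 arrays, 9 were called higher and 5 lower, beside 3652 and 6068 of 18303 genes. The median difference of these 22 members was 0.28, beside −0.14 for all genes under that filter. With normexp background correction the median of the 24 was 0.23, beside −0.135 for all genes. The median over all genes moved up by 0.103 with quantile normalization, which called 4099 genes higher and 4010 lower, with 12 members higher and 3 lower. With spike-in scaling 2251 genes were called higher and 916 lower, with 9 members higher and 0 lower; the call rule above gave 3749 and 6138 genes.

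**Figure D1:**
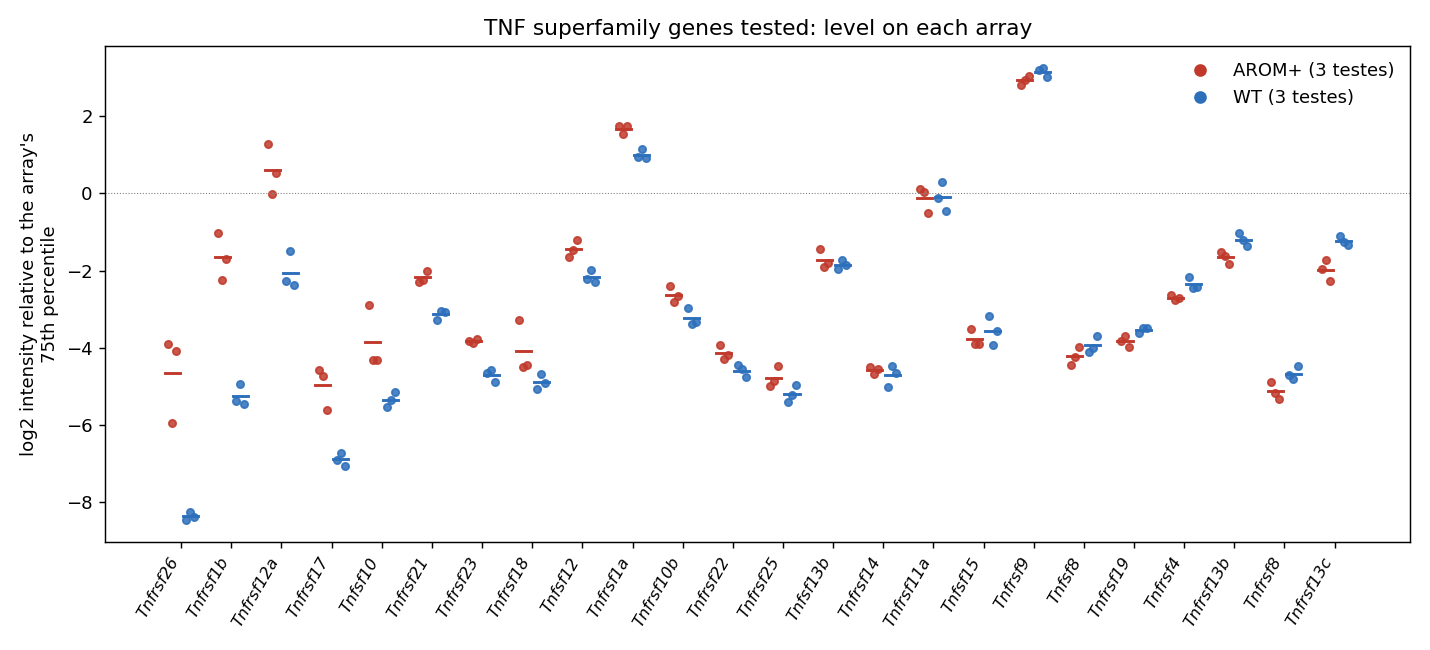
Level (log2 intensity above or below the 75th percentile of the array, vertical axis) of the 24 TNF superfamily genes tested, with 1 point per testis, AROM+ left of WT for each gene and a short line at each group mean. Genes run by their difference, with Tnfrsf26 (mean −4.65 in AROM+ and −8.38 in WT) at the left end and Tnfrsf13c at the right end; heights compare the groups within a gene, not different genes.

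Tnfrsf1b and Tnfrsf1a encode the receptors for TNF, and both were higher in AROM+ testes. Tnfrsf1b, the receptor without a death domain, read −1.02, −2.26 and −1.70 on the AROM+ arrays and −5.39, −4.96 and −5.45 on the WT arrays. Its AROM+ values spread more widely than its WT values, and the groups lay far apart. The difference was 3.61 ± 0.31 (SE), a fold of 12.2 (limma, adjusted p = 0.00175), and 0.339% of all genes tested rose by more. Tnfrsf1a, the death domain receptor that most cell types carry, read 1.75, 1.55 and 1.75 in AROM+ and 0.96, 1.15 and 0.92 in WT. These groups did not overlap either, and the difference was 0.67 ± 0.10 (limma, adjusted p = 0.00452). A second probe of Tnfrsf1a gave 0.90 ± 0.15 (limma over probes, adjusted p = 0.00619); over all kept probes, 44.4% were called either way. Of their ligands, Lta (lymphotoxin alpha) was higher, at −3.30, −3.17 and −3.08 in AROM+ against −5.01, −5.13 and −5.15 in WT, a fold of 3.75 (limma, adjusted p = 0.00103). Tnf itself was too dim to test, since it was well above background on 2 of 3 arrays in each group, and it averaged −6.45 ± 0.58 in AROM+ and −6.48 ± 0.12 in WT (SD, n = 3).

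The 250 bases before the annotated starts of Tnfrsf1b and Tnfrsf12a are shown because these genes had the largest differences among members measured on all 6 arrays. The sequences are from RefSeq (GRCm38.p6), read 5′ to 3′ along the gene, with CG dinucleotides in capitals.
Tnfrsf1b, chr4:145246871-145247120 of GRCm38.p6, minus strand: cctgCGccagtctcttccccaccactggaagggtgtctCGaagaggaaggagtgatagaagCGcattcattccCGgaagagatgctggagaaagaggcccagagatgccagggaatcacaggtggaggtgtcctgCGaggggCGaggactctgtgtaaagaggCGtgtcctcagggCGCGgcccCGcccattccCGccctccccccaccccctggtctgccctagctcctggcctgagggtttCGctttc
Tnfrsf12a, chr17:23677450-23677699 of GRCm38.p6, minus strand: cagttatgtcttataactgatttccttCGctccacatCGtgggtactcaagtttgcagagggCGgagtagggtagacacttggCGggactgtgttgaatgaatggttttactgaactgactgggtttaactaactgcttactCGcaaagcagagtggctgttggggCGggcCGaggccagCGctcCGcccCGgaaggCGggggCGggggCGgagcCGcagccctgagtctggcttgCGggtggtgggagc
They hold 12 and 15 CG, where the same stretch of all promoters in the table had a median of 6 (quartiles 2 and 16). The table had 27 promoter entries for 23 of the 30 members, each of 250 bases before and 50 after the start. Of these entries, 0 held the palindromic oestrogen response element GGTCANNNTGACC on either strand, which 0.07% of all 32851 promoters held. A kappaB motif (GGGA, any 2 bases, TTCC) was found in 0 of the 27 as well, and in 1.47% of all promoters, again on both strands. No match says only that these letters were not in these windows.

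The TWEAK pair was higher on both sides. Tnfrsf12a, a small receptor known to be induced in injured tissue, read 1.29, −0.02 and 0.53 in AROM+ and −2.27, −1.50 and −2.39 in WT. The lowest AROM+ array stood well above the highest WT array, and the difference was 2.66 ± 0.37, a fold of 6.30 (limma, adjusted p = 0.0037). Tnfsf12, which encodes its ligand TWEAK, read −1.66, −1.46 and −1.22 in AROM+ and −2.23, −1.99 and −2.30 in WT. Its groups did not overlap, and the difference was 0.73 ± 0.14 (limma, adjusted p = 0.00813). The second probe of Tnfsf12 differed by 1.43 (limma over probes, adjusted p = 0.00381), so the probes shared the direction and not the size.

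The ligand TRAIL, its death receptor and 2 decoy receptors were higher. Tnfsf10, which encodes TRAIL, a ligand that can trigger apoptosis, read −2.90, −4.33 and −4.33 in AROM+ and −5.53, −5.37 and −5.14 in WT. AROM+ replicate 1 stood above the other two, which still lay above every WT array, and the difference was 1.5 ± 0.39, a fold of 2.82 (limma, adjusted p = 0.0189). Without WT replicate 1 it was 1.40 and was no longer called (limma, adjusted p = 0.0605), and normexp background correction gave 0.92 (adjusted p = 0.033). Tnfrsf10b, the death receptor for TRAIL in mice, read −2.40, −2.82 and −2.67 in AROM+ and −2.97, −3.40 and −3.33 in WT, a difference of 0.60 ± 0.16 (limma, adjusted p = 0.0192). The groups did not overlap, though the gap was narrow, and the call was lost in 3 of 19 other settings.

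Tnfrsf26, Tnfrsf22 and Tnfrsf23 follow each other among the members on chromosome 7, and all 3 were called higher. Tnfrsf22 and Tnfrsf23 are mouse decoy receptors for TRAIL. Tnfrsf26 read −3.91, −5.96 and −4.08 in AROM+, where it was well above background on 3 of 3 arrays, and −8.47, −8.27 and −8.40 in WT, where it was not well above background on any. The fold is therefore given as a nominal bound, at least 5.15-fold higher in AROM+ (limma, adjusted p = 0.00363 for the fitted difference of 3.73 ± 0.52). The bound sets the AROM+ mean against the lowest signal well above background on each WT array. That signal is not a strict limit of detection. On WT replicate 3 it was −7.39, and the second Tnfrsf22 probe read −7.16 there without being well above background. Normexp correction, which adds an offset, gave a fitted difference of 1.53 for Tnfrsf26 (limma, adjusted p = 0.0072).
Tnfrsf23 read −3.82, −3.88 and −3.78 in AROM+ and −4.66, −4.59 and −4.90 in WT. Its AROM+ arrays agreed closely, and the difference was 0.89 ± 0.11 (limma, adjusted p = 0.00285). Tnfrsf22 read −3.94, −4.30 and −4.19 in AROM+ and −4.47, −4.55 and −4.77 in WT, a difference of 0.45 ± 0.13 (limma, adjusted p = 0.0271) whose call was lost in 7 of 19 other settings. The second probe of each gene was too dim to test, with differences of 0.30 for Tnfrsf22 and 0.87 for Tnfrsf23 between overlapping groups. Tnfrsf21, a death domain receptor (DR6), read −2.30, −2.24 and −2.003 in AROM+ and −3.27, −3.05 and −3.07 in WT. Its groups were well separated, and the difference was 0.95 ± 0.12 (limma, adjusted p = 0.00294).

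**Figure D2:**
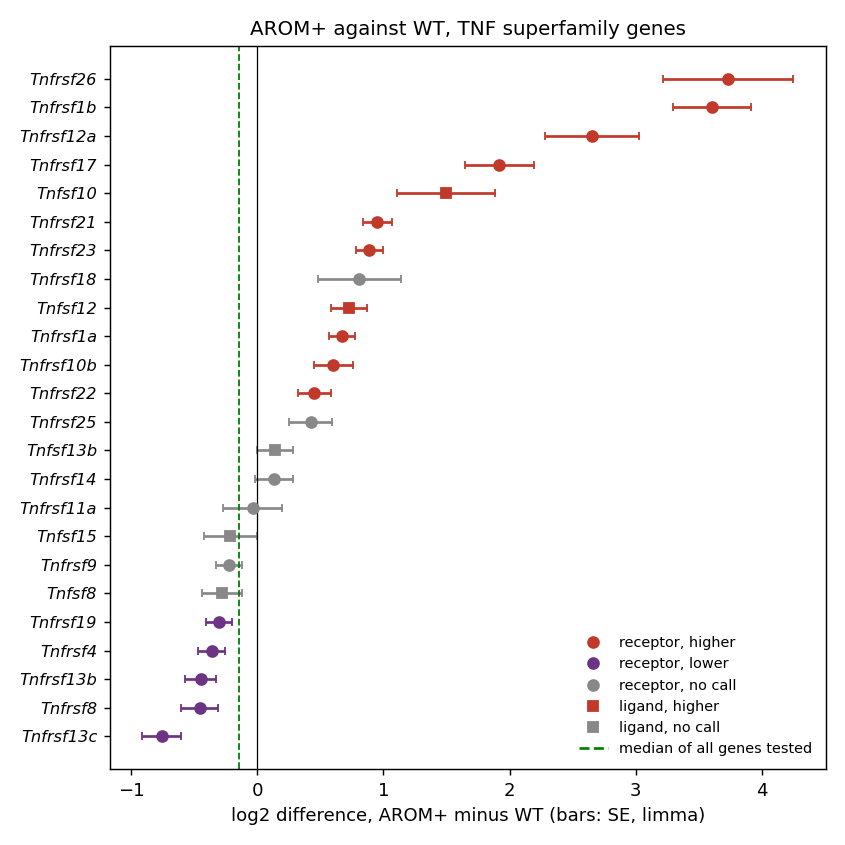
Log2 difference of each tested member, AROM+ minus WT (horizontal axis), with bars for the SE from limma. Circles are receptors and squares are ligands, coloured by call, and the dashed line marks the median of all genes tested (−0.14); Tnfrsf26 (3.73), Tnfrsf1b (3.61) and Tnfrsf12a (2.66) lie farthest to the right and Tnfrsf13c (−0.76) farthest to the left.

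Of the receptors for BAFF, a survival factor for B cells, Tnfrsf17 was called higher, Tnfrsf13c was called lower, and Tnfrsf13b differed by probe. Tnfrsf17 (BCMA), known from plasma cells, read −4.58, −4.74 and −5.63 in AROM+ and −6.91, −6.73 and −7.06 in WT. It was well above background on 3 of 3 AROM+ arrays and on 1 of 3 WT arrays, so it was tested only because of its AROM+ values. The fitted difference was 1.92 ± 0.27 (limma, adjusted p = 0.00384), and no fold is given because most WT values are near background. With normexp correction the difference was 0.93 (adjusted p = 0.00371).
Tnfrsf13c (BAFF receptor) was lower, at −1.95, −1.72 and −2.28 in AROM+ against −1.11, −1.25 and −1.32 in WT. The groups did not overlap, and the difference was −0.76 ± 0.16 (limma, adjusted p = 0.00908), but a second probe gave −0.06 (limma over probes, adjusted p = 0.831). Tnfsf13b, which encodes BAFF, was not called, with a difference of 0.14 ± 0.14 (limma, adjusted p = 0.439) between overlapping groups. B cell and plasma cell markers are given beside these receptors: of 11 tested, 1 was higher (Cd79b by 2.10) and 3 were lower (among them Pax5 and Mzb1), while Ms4a1 was well above background on 0 of 3 AROM+ and 1 of 3 WT arrays. Their summed intensity, in units of the array's 75th percentile, was 5.75 to 5.93 in AROM+ and 5.75 to 5.92 in WT. That sum follows its brightest probes and does not count cells. The brightest, Cd22, averaged 1.85 in AROM+ and 1.95 in WT and was not called. Whether cell numbers bear on the receptor values was not tested; in whole testes, fewer cells of a type and less RNA per cell cannot be told apart.

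Tnfrsf13b (TACI) gave opposite directions by probe. The brightest probe, which the gene is read by, gave −1.53, −1.61 and −1.82 in AROM+ and −1.03, −1.21 and −1.38 in WT, and the gene was called lower by −0.45 ± 0.13 (limma, adjusted p = 0.0243). A probe 3′ of it gave −4.13, −4.16 and −3.54 in AROM+ and −4.42, −4.46 and −4.54 in WT, higher by 0.53 (limma over probes, adjusted p = 0.0464). The probe nearest the 3′ end gave −2.83, −4.20 and −4.17 in AROM+ and −6.59, −6.07 and −6.58 in WT, higher by 2.68 (limma over probes, adjusted p = 0.00498). In each case the groups did not overlap, and the 3 probes disagree on the direction of the gene. With the mean of the probes the gene was higher by 0.92 (limma, adjusted p = 0.00485).

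**Figure D3:**
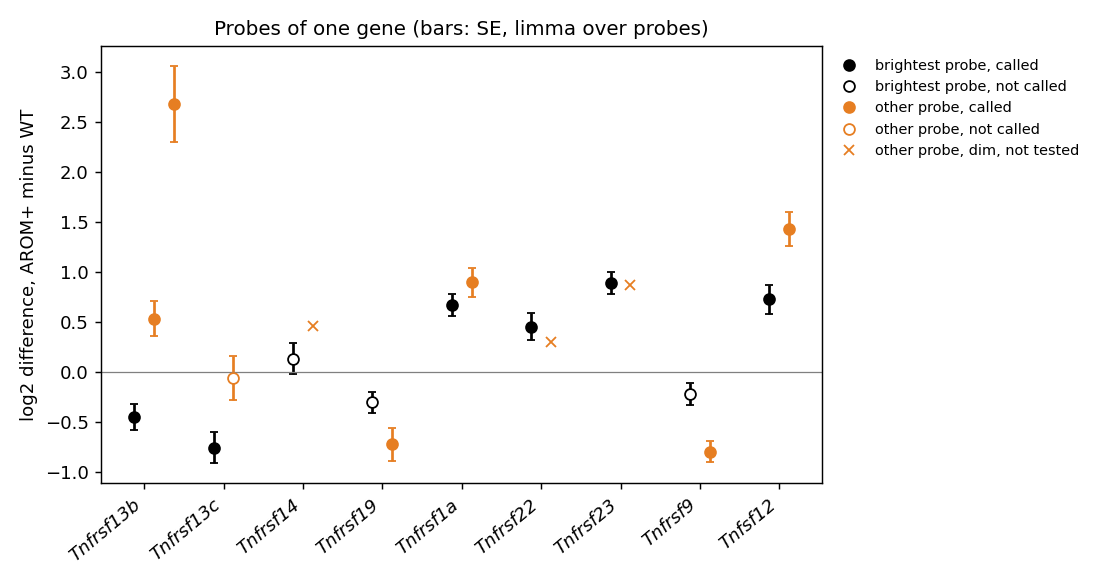
Log2 difference, AROM+ minus WT (vertical axis), of every probe for the 9 members with more than 1 probe, with bars for the SE from limma over probes. Black marks are the brightest probe and orange marks the others; the probes of Tnfrsf13b span −0.45 to 2.68 and those of Tnfrsf9 give −0.22 and −0.80.

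Costimulatory receptors, which act mainly on activated T cells, differed among themselves. Tnfrsf8 and Tnfrsf4 were called lower, in a way that depended on the setting (calls lost in 9 and 6 of 19 other settings). Tnfrsf18 and Tnfrsf25, described below, had positive differences that were not called. Tnfrsf8 (CD30) read −4.90, −5.18 and −5.33 in AROM+ and −4.72, −4.83 and −4.49 in WT, a difference of −0.46 ± 0.15 (limma, adjusted p = 0.037). Tnfrsf4 (OX40) read −2.64, −2.78 and −2.72 in AROM+ and −2.16, −2.46 and −2.42 in WT, a difference of −0.36 ± 0.11 (limma, adjusted p = 0.0293). Neither pair of groups overlapped, but the gaps were small, and relative to the median of all genes the differences were −0.31 for Tnfrsf8 and −0.22 for Tnfrsf4. The ligand of CD30, Tnfsf8, was not called at −0.28 ± 0.16 (limma, adjusted p = 0.175), and the ligand of OX40, Tnfsf4, was not well above background on any array.
Tnfrsf19 (TROY), a receptor known from skin and neural development and from epithelial stem cells, read −3.83, −3.70 and −3.97 in AROM+ and −3.62, −3.49 and −3.49 in WT. Its difference was −0.30 ± 0.10 (limma, adjusted p = 0.0409), and a second probe gave −0.72 (limma over probes, adjusted p = 0.0141). The call by the brighter probe was lost in 13 of 19 other settings. That of Tnfrsf13b was lost in 5 besides its reversal, and that of Tnfrsf13c in 1.

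Tnfrsf9 (4-1BB), another costimulatory receptor, depended on the probe. The brighter probe, with the GT run shown above, read 2.81, 2.95 and 3.05 in AROM+ and 3.20, 3.24 and 3.03 in WT. These overlapped, with a difference of −0.22 ± 0.10 (limma, adjusted p = 0.112). The other probe read −3.30, −3.23 and −3.39 in AROM+ and −2.46, −2.41 and −2.65 in WT, without overlap and with a difference of −0.80 ± 0.11 (limma over probes, adjusted p = 0.00434). A dinucleotide run of 22 bases or more occurred in 71 of the 55681 probes on the array (0.128%), where the median longest run over member probes was 5 bases. All 62 probes with a GT or CA run of at least 22 bases were kept. In the mean over 6 arrays, all 62 lay above the 75th percentile, as the brighter Tnfrsf9 probe did. Their median difference was −0.18, with 0 called higher and 2 lower, and the median over all kept probes was −0.19. What the brighter probe bound was not tested. By its other probe, an alternative chosen after seeing the data, Tnfrsf9 was lower (limma, adjusted p = 0.00305) and 6 members were called lower.

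The other tested members were not called. Under other settings, Tnfrsf18 was called higher with array weights, and Tnfrsf25 with quantile normalization and with a replicate block. Tnfrsf18 (GITR) read −3.29, −4.51 and −4.46 in AROM+ and −5.07, −4.68 and −4.92 in WT, with no overlap and a difference of 0.81 ± 0.33 (limma, adjusted p = 0.0774). Tnfrsf25 (DR3) differed by 0.42 ± 0.17 (limma, adjusted p = 0.0758), and its ligand Tnfsf15 (TL1A) by −0.21 ± 0.21 (adjusted p = 0.41). Tnfrsf14 (HVEM) differed by 0.13 ± 0.15 (limma, adjusted p = 0.487). The ligands Tnfsf14 (LIGHT) and Tnfsf18 (GITRL) were not well above background on any array. Tnfsf9, the ligand of 4-1BB, was well above background on 1 of 3 AROM+ arrays and 0 of 3 WT arrays, at −6.13, −7.96 and −8.42 in AROM+ and −9.08, −8.91 and −9.19 in WT. It was not tested for that reason.

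RANK, RANKL and OPG, the receptor, ligand and soluble decoy that control osteoclast formation, could be compared only for the receptor. Tnfrsf11a (RANK) read 0.11, 0.04 and −0.50 in AROM+ and −0.11, 0.31 and −0.44 in WT, a difference of −0.04 ± 0.24 (limma, adjusted p = 0.901). The groups overlapped throughout. Tnfsf11 (RANKL) was not well above background on any array, and Tnfrsf11b (OPG) on 1 of 3 AROM+ arrays only, so neither was tested. OPG read −6.90, −7.40 and −5.77 in AROM+ and −7.52, −8.88 and −8.29 in WT. All AROM+ arrays lay above all WT arrays, and without the filter on dim probes the difference was 1.54 ± 0.51 (limma, adjusted p = 0.0513).
Of 21 tested genes known from RANK signalling and from multinucleated macrophages and osteoclasts, 14 were higher and 2 lower, with a median difference of 1.01. Atp6v0d2, a proton pump subunit needed for macrophage fusion, was 31.5-fold higher (limma, adjusted p = 0.00124). Mmp9, a matrix protease, was not well above background on any WT array, so its fold is a nominal bound, at least 4.54-fold higher (limma, adjusted p = 0.0143). Trem2, a lipid-sensing receptor of macrophages, was 8.03-fold higher (limma, adjusted p = 0.00175). Ctsk, the collagen-cleaving cathepsin K, was 6.56-fold higher (limma, adjusted p = 0.00154). Nfatc1, the transcription factor at the end of RANK signalling, was 2.44-fold higher (limma, adjusted p = 0.018), while Dcstamp and Ocstamp, fusion proteins of osteoclasts, were not called (adjusted p = 0.134 and 0.966). Lower were Fosl1, an AP-1 subunit, and Oscar, an osteoclast receptor.

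Superfamily members whose names do not follow the rule were also measured. Of 4 tested ligands 3 were higher, Lta as above, Eda (ectodysplasin) by 1.04 ± 0.17 (limma, adjusted p = 0.00532) and Ltb by 0.74 ± 0.22 (adjusted p = 0.0315), and Fasl was lower by −0.51 ± 0.14 (adjusted p = 0.0245). Of 7 tested receptors 2 were higher and 2 lower. Fas, the death receptor for Fas ligand, was higher, at −3.71, −4.25 and −3.86 in AROM+ against −5.10, −5.09 and −5.38 in WT, a fold of 2.39 (limma, adjusted p = 0.00324). Ltbr, the lymphotoxin beta receptor, was higher by 0.38 (limma, adjusted p = 0.0113), while Ngfr, the neurotrophin receptor p75, was lower by −0.58 (adjusted p = 0.0219) and Edar, the ectodysplasin receptor, by −0.51 (adjusted p = 0.0202).

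Downstream, among 19 TRAF adaptors and death domain proteins, 6 were higher and 0 lower, with a median difference of 0.17. They included Casp8, the initiator caspase of death receptors, at −1.10, −1.85 and −1.34 in AROM+ against −2.67, −2.49 and −2.93 in WT (a fold of 2.41; limma, adjusted p = 0.00542). Tradd, the adaptor of TNF receptor 1, was 1.83-fold higher (limma, adjusted p = 0.00528) and Traf6, the adaptor that RANK uses, 1.86-fold (adjusted p = 0.00221). Traf3ip2, the adaptor Act1 of interleukin-17 receptors, was 1.92-fold higher (limma, adjusted p = 0.00707). Traf2, an adaptor of both TNF receptors, was not called (limma, adjusted p = 0.157). Of 27 NF-kappaB subunits, kinases and inhibitors, 13 were higher and 3 lower, with a median of 0.31; with spike-in scaling these counts were 8 and 0. Ikbke, an IKK-related kinase, was 2.14-fold higher (limma, adjusted p = 0.0202) and Nfkbid, a nuclear IkappaB protein, 2.03-fold (adjusted p = 0.0045). Relb, the subunit of the noncanonical branch, rose by 0.92 ± 0.13 (limma, adjusted p = 0.00394), and the feedback inhibitors Nfkbia by 0.73 (adjusted p = 0.00953) and Tnfaip3 by 0.88 (adjusted p = 0.0163). Rela was not called (limma, adjusted p = 0.582). Map3k7, the kinase TAK1, was lower by −0.60 ± 0.10 (limma, adjusted p = 0.00495), as were Nfkbib and Nfkbiz.

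Markers of the cell types that could carry these receptors differed as well. Of 13 macrophage markers 9 were higher, led by Lyz2 (2.79), Cd68 (2.40), Ctss (2.32) and Adgre1 (1.91), and 2 were lower (Csf1r and Aif1). Their summed intensity in units of the array's 75th percentile was 72.6 to 90.0 in AROM+ and 51.1 to 66.8 in WT. Each such sum follows the brightest probes of its list and does not count cells. Of 11 tested T cell markers, 2 were higher (Cd28 by 1.45 and Cd4 by 0.79) and 2 lower (Cd3d by −0.72 and Cd5 by −0.25), with sums of 2.36 to 3.70 in AROM+ and 2.95 to 3.29 in WT. NK cell markers had 0 of 5 higher and 2 lower, Eomes and Ncr1 (sums 0.809 to 0.992 in AROM+ and 0.984 to 1.00 in WT). Mast cell markers had 1 of 3 higher, Hdc (sums 1.67 to 2.34 in AROM+ and 1.4999 to 1.86 in WT). Of 7 dendritic cell markers, 1 was higher (Itgax, by 4.23) and 2 were lower, Zbtb46 and Flt3 (sums 9.65 to 11.3 in AROM+ and 10.6 to 11.9 in WT). The brightest of that list, Siglech, averaged 3.09 in AROM+ and 3.29 in WT and was not called. Endothelial markers were higher for 6 of 8, led by Plvap (1.96), Tie1 (1.65), Pecam1 and Emcn (1.45 each), and lower for 1 (sums 3.15 to 4.34 in AROM+ and 2.83 to 3.09 in WT).

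Sertoli markers were higher for 5 of 12, led by Kitl (1.10), Inha, Gata4 and Trf, with 0 lower (sums 68.2 to 74.5 in AROM+ and 49.997 to 61.0 in WT). The rest of that list was not called: Sox9 (0.20), Amh (0.12), Wt1 (0.19), Cldn11 (0.23), Rhox5 (−0.0008), Dhh (0.40) and Clu (−0.01). Leydig markers were higher for 3 of 8 (Lhcgr, Cyp11a1 and Nr5a1), with 0 lower (sums 38.8 to 54.3 in AROM+ and 28.3 to 45.1 in WT). All 10 round spermatid markers were lower, led by Catsper3 (−0.77), Spam1 (−0.70), Izumo1 and Zpbp (sums 59.1 to 63.6 in AROM+ and 80.9 to 85.4 in WT). Of 10 elongating spermatid markers 6 were lower, led by Akap4 (−0.56), Oaz3, Cabs1 and Odf1 (sums 210.3 to 221.7 in AROM+ and 253.1 to 335.6 in WT). The calls of several lists depended on the scaling: 4 round and 1 elongating spermatid marker were lower with quantile normalization and 0 of either with spike-in scaling. With spike-in scaling 1 T cell marker was higher and 0 were lower, 0 NK cell markers and 0 B cell and plasma cell markers were lower, and 0 mast cell markers were higher. Of 13 macrophage markers 9 were higher under both of those, with 0 lower. The part of these shifts in the receptor values was not tested.

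**Figure D4:**
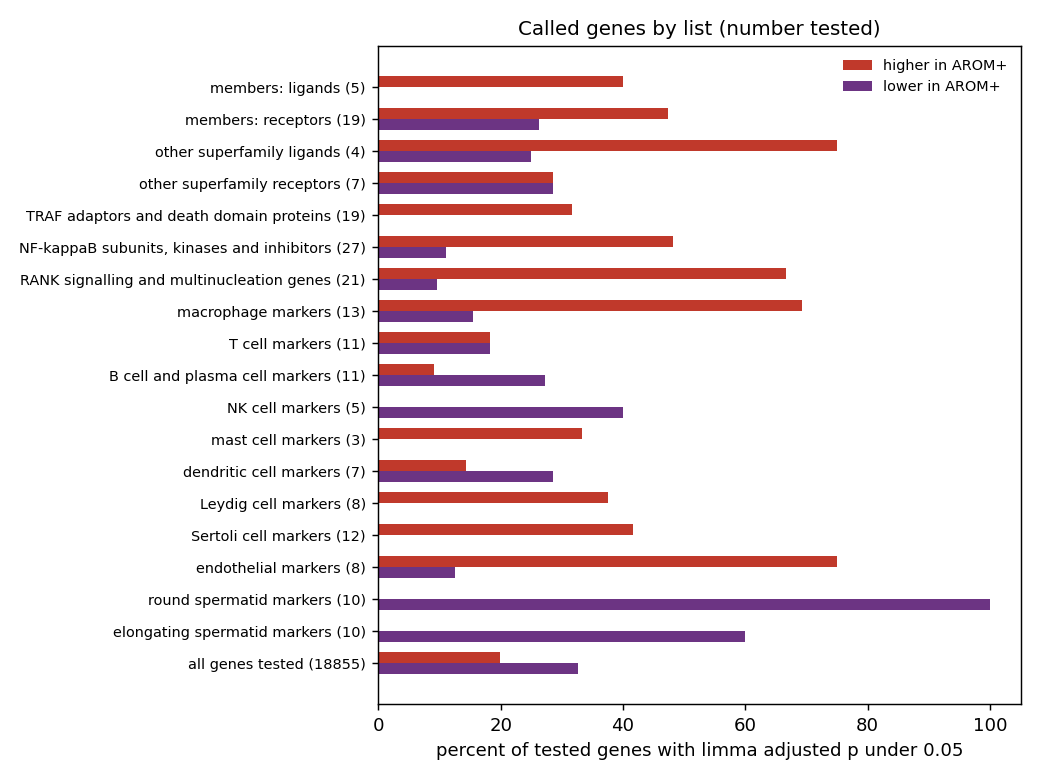
Percent of tested genes called higher (red) or lower (purple) in AROM+ by limma at an adjusted p under 0.05 (horizontal axis), for the members, related genes and marker lists, with the number tested in brackets. Over all genes tested the bars reach 19.9% and 32.6%; round spermatid markers were lower for 10 of 10.

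Neighbouring members on a chromosome did not always share a direction. Chromosome 4 holds 9 members by the probes' positions. Tnfrsf1b, higher by 3.61, is followed there by Tnfrsf8, lower by −0.46, and Tnfrsf4, lower by −0.36, is followed by Tnfrsf18, at 0.81 and not called. On chromosome 17, Tnfrsf12a and Tnfrsf21 were higher and the ligands Tnfsf9 and Tnfsf14 were too dim to test.

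Of the 11 members called higher, 8 kept that call under every other processing setting in which they were tested. Those settings include the swap of the Tnfrsf9 probe alone, in which the differences of the other members could not move. Tnfrsf1b ranged from 2.87 to 3.91 over 19 other settings, Tnfrsf12a from 2.31 to 2.97, Tnfrsf21 from 0.85 to 1.01, Tnfrsf23 from 0.64 to 0.95, Tnfsf12 from 0.61 to 1.08 and Tnfrsf1a from 0.57 to 0.81. Each was called higher in all of them, and Tnfrsf26 and Tnfrsf17 were called higher in the 18 settings in which they could be tested. These last 2 passed the filter on dim probes only through the AROM+ arrays. The setting that required all 6 arrays above background left both out, so their kept calls are descriptions.

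**Figure D5:**
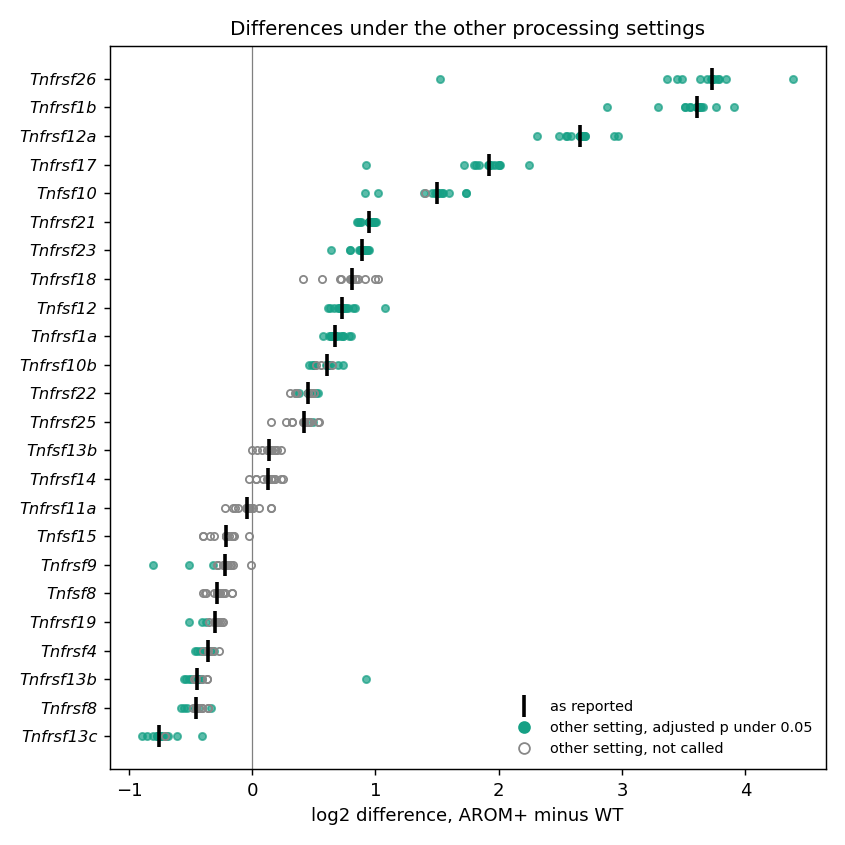
Log2 difference, AROM+ minus WT (horizontal axis), of each tested member as reported (black tick) and under the other processing settings (circles, filled where the adjusted p from limma was under 0.05). The circles of Tnfrsf1b span 2.87 to 3.91, and 1 circle of Tnfrsf13b lies at 0.92, on the other side of 0 from its reported −0.45.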

How the data were processed

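Agilent one-colour arrays (Cy3) measured messenger RNA in 3 AROM+ and 3 WT testes, grouped by the genotype in the labels. The p-values set the difference between the groups against the spread between testes of a group. In limma the eBayes step draws that spread towards its value over all genes. The authors deposited spot intensities from Agilent Feature Extraction (10.7.3.1 in the file headers, 10.10 in the submitters' processing notes), and per the file headers the processed signal is an intensity after background correction. They also deposited a log2 table. Set against the scanner values it had a slope of 1.00 on log2 of the processed signal, between 89.7% and 90.3% of spots lay within 0.02 of 1 constant per array, and no centring of genes was seen. The medians of its columns were −3.36, −3.38 and −3.34 for AROM+ and −3.41, −3.40 and −3.38 for WT.

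Processed signals were put on the log2 scale here, and the 75th percentile of the array was subtracted. Of 62976 spots, 3671 control spots and 123 to 192 spots flagged as outliers per array were left out; no spot was saturated. Spots of one probe were averaged (55681 probes), and probes well above background on 3 arrays of a group were kept (42637). Between 76.6% and 80.6% of spots per array were well above background, and the number of arrays limits the precision. Gene names came from RefSeq (GRCm38.p6) for 26161 probes through an accession, 3752 through a symbol and 623 through a synonym, while 702 that match several genes and 24443 that match none got no name. The brightest kept probe stood for a gene. The comparison used limma 3.58.1 under R 4.3.3 (lmFit, eBayes) with Benjamini-Hochberg adjustment over 18855 genes. All 6 arrays lie on 1 slide with AROM+ and WT in separate rows, and the row on the slide and the group cannot be told apart.

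Members and lists were chosen with earlier results of these data known. Every member is accounted for, with values on each array for those called; partners of called members and the 4 called genes of largest difference per list were named. Nfatc1, Fosl1, Oscar, Dcstamp, Ocstamp, Traf2, Nfkbia, Nfkbib, Nfkbiz, Rela, Map3k7, Csf1r, Aif1 and Tnfrsf18 were singled out after their values were seen. The Sertoli markers not called were all named, also after their values were seen. Of the marker genes outside the family that this rule names, 1 is not reported here. Numbers shared by replicates of the 2 groups were checked as pairs: deviations of same-numbered arrays correlated at 0.0156, −0.236 and 0.00442, so they were not taken as pairs. On simulated data for AROM+ against WT (18855 genes), the fit recovered 14% of genes changed by 0.5, 58% by 1, 92% by 2 and 100% by 4 (log2), with 6 false calls. These shares hold for that simulation only. The adjusted p depends on how many genes differ, and 52.4% of all genes were called in the measured data. The other settings were normexp (offset 50), quantile, gene-median and spike-in scaling, the deposited table, 2 other filters, 2 other probe summaries, a replicate block, an eBayes trend, array weights and leaving out each array; Tnfrsf9 by its other probe was added after seeing the data.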

Additional observations from a re-analysis of the deposited data

How the results depend on the processing

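The count of members called higher, 11 as reported, stayed within 9 to 12 under every alternative, and within 9 to 11 when each array was left out. Over all genes, 3749 were called higher as reported, and 2608 to 3587 when each array was left out. The count of members called lower, 5 as reported, varied more. It was 3 with quantile normalization, 0 with spike-in scaling, 3 with no filter on dim probes and 2 with an intensity trend in eBayes. Over all genes, 6138 were called lower as reported. In the same order of settings, that number was 4010, 916, 5763 (of 21880 genes) and 6313. Leaving out 1 array gave 1 to 4: 4 without AROM+ replicate 1, 2 without AROM+ replicate 2, 1 without AROM+ replicate 3, 1 without WT replicate 1, 3 without WT replicate 2 and 2 without WT replicate 3. Over all genes, those fits called 4705, 5312, 5225, 3931, 5446 and 3804 genes lower, in the same order. With the replicate number as a block, 12 members were called higher and 3 lower, beside 3133 and 4593 of all genes. The replicate numbers did not pair the arrays. Whether members lost calls beyond the loss over all genes was not tested. The direction of 1 called member turned: Tnfrsf13b was higher by 0.92 with the mean of its probes. Besides the lost calls given above, Tnfrsf25 was called higher with quantile normalization and with the block, Tnfrsf18 with array weights, and Tnfrsf9 lower with gene-median centring, with the mean of its probes and by its other probe. The cause of these changes was not tested, and settings without an array also have fewer samples. With spike-in scaling, calls of other family and pathway genes were also lost (Fasl, Ltb, Edar, Ltbr, Ngfr, Map3k7, Nfkbib, Nfkbiz and Oscar among those named), and none of the list genes called turned its sign under the 3 other scalings. Dim signal limits 6 members, which the filter left untested, and Tnfrsf26 and Tnfrsf17, whose WT arrays lay near or below background. With no filter the 6 had adjusted p-values from limma of 0.0513 (Tnfrsf11b) to 0.777 (Tnfsf18).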
